A study of Mus musculus with 20 samples.

Results

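The comparison described here is that of 6-3-A6, a mouse antibody raised to block Notch4, with control IgG in ribosome-bound mRNA pulled from the endothelium of Py8119 tumors. Its members are the 10 immunoprecipitated (IP) libraries of a series of 20, with 5 control IgG and 5 6-3-A6 tumors, chosen by their library titles alone. All 10 enter every result unless stated otherwise. The other 10 libraries are the whole homogenates (input) of the same tumors. The host mice were female, Rpl22HA/HA with a tamoxifen-inducible Cre under the Cdh5 promoter, on a C57BL/6J background. Every mouse received 75 mg/kg tamoxifen on 5 days from 3 weeks of age and Py8119 mammary carcinoma cells in the fat pad at 8 weeks. Treatment with 25 mg/kg 6-3-A6, or with control mouse IgG, was given intravenously 2 times a week, and tumors were taken on day 10. Sources differ on the tumor volume at the first dose, with 30 mm3 in the sample protocols and 50 mm3 in the series design. The tag sits in cells in which Cdh5 was active at the time of tamoxifen, and the tumor cells themselves carry no tag.

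Notch receptors are single-pass proteins that a ligand on a neighbouring cell activates. Activation frees an intracellular fragment that joins Rbpj on DNA and turns on genes such as Hes1 and Hey1. Notch4 is the receptor whose expression is most restricted to endothelium, where Dll4 and Notch1 also hold the balance between tip and stalk cells of a growing vessel. In RiboTag mice, Cre swaps the last exon of Rpl22 for a copy with a hemagglutinin tag, so that anti-HA beads recover ribosomes of the tagged cells. mRNA of other cells can be carried along to an extent that differs from one pulldown to the next.

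The libraries held 15677474 to 22790757 counted reads for control IgG and 15589411 to 21621285 for 6-3-A6, so that 3 reads, taken as the limit of detection, were worth 0.132 to 0.192 CPM. Levels are given as CPM, a gene's share of the counted reads of its library after TMM scaling of library sizes. Endothelial identity was checked with 20 marker genes, of which 19 passed the filter on low counts and Ecscr was at 0. Pecam1, the adhesion molecule of endothelial contacts, ranged from 344 to 1621 CPM in control IgG and from 204 to 1463 CPM in 6-3-A6. Cdh5, the endothelial cadherin whose promoter drives the Cre, ranged from 346 to 1639 and from 235 to 1508 CPM. Libraries control IgG IP 4 and 6-3-A6 IP 2 had the lowest endothelial levels, and the 19 markers summed to 1969 and 1510.1 CPM there. In the other 8 libraries the sum lay between 3481 and 8406 CPM. The titles, not the description fields, gave the fraction of each library, because the descriptions of the 6-3-A6 libraries name the opposite fraction. Log2 IP over input was 3.93 for Pecam1 and 4.19 for Cdh5 with the titles.

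The mean log2 CPM of the 20 endothelial markers was 6.73 ± 0.87 (SD, n = 5) in control IgG and 6.77 ± 0.89 (n = 5) in 6-3-A6 (two-sided exact permutation test, p = 0.960, adjusted over 3 scores p = 0.960). Macrophage markers averaged 7.64 ± 0.24 (n = 5) and 7.21 ± 0.57 (n = 5), a difference of -0.42 on the log2 scale (exact permutation p = 0.167, adjusted p = 0.50). Without 6-3-A6 IP 5, the 6-3-A6 library with the highest macrophage level at 8.22, that difference was -0.67, a value given with no test because the library was picked for its level. A score for endothelial content, the endothelial mean less the average of the macrophage, fibroblast and tumor marker means, was 1.74 ± 1.20 and 2.08 ± 1.05 (n = 5 each, exact permutation p = 0.635, adjusted p = 0.952). The smallest p these 10 libraries allow is 0.00794. After a principal component plot, the study left out IP 1 and 3 of control IgG along with IP 2 and 5 of 6-3-A6. The 6 that it kept separated on this content score without overlap, from 0.214 to 1.49 in control IgG 2, 4 and 5 and from 2.7 to 2.81 in 6-3-A6 1, 3 and 4. Over these 6 the score differed by 1.81, given with no test because the libraries were picked on their values, and its part in any difference of the 6 was not tested. In bulk libraries such as these, fewer cells of a type and less RNA per cell cannot be told apart.

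**Figure D1:**
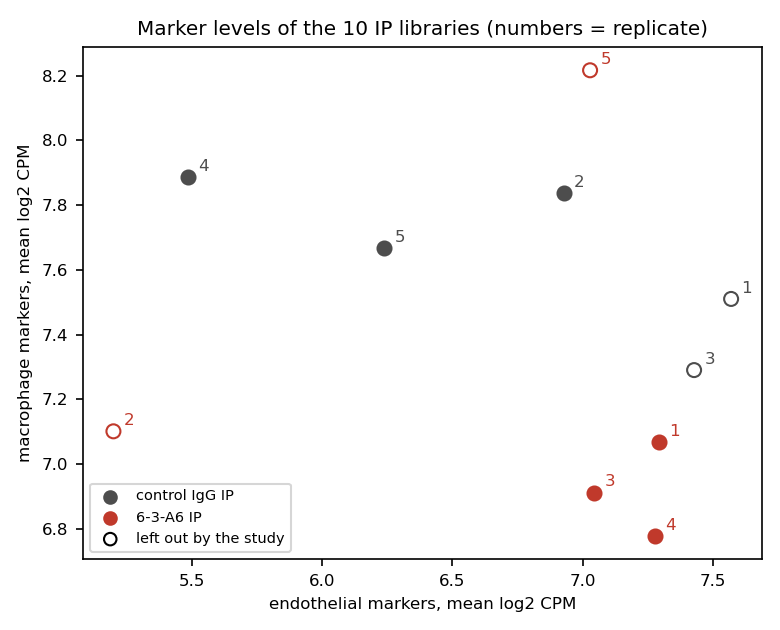
Mean log2 CPM of the endothelial markers (x axis) against that of the macrophage markers (y axis) in each IP library, gray for control IgG and red for 6-3-A6, with the replicate number beside each point and open symbols for libraries that the study left out. The filled red points lie at lower right, at 6.78 to 7.07 for macrophage markers, and the filled gray points lie above them at 7.67 to 7.89, while the open points lie among and around them.

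Across 13602 tested genes, no gene passed a Benjamini-Hochberg adjusted p of 0.05 in edgeR's quasi-likelihood test (0%), the lowest adjusted p was 1.00, and DESeq2 likewise called 0. Single genes are therefore given with a standard error and a 95% interval that is not adjusted for the number of genes, and none of the differences below passed the adjusted test over all 10 libraries. At an unadjusted p under 0.05 there were 292 genes, or 2.15% of those tested. Of these, 49 (0.36%) were higher and 243 (1.79%) lower in 6-3-A6, although 51.7% of all genes had a log2 fold change above 0 and the median was 0.01. DESeq2 gave 359 genes at that unadjusted threshold. Without 6-3-A6 IP 5 the edgeR count was 989, without control IgG IP 3 it was 740, and without control IgG IP 2 or 4 it was 135 or 137. The 5 control IgG and 5 6-3-A6 values did not overlap for 23 genes (0.169%), 5 of them higher (0.0368%) and 18 lower (0.132%). For 10350 genes (76.1%) the 95% interval of the log2 fold change lay within 1 of 0, so that for these a doubling in either direction lay outside the interval. For the endothelial markers this held for 3 of 19, since their spread between libraries of 1 group was wider, with a median within-group SD of 0.97 against 0.39 on the log2 scale over all genes.

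All fold changes and list medians are on the log2 scale. Medians of gene lists are given with their lowest and highest value when 1 of the 10 libraries was left out. "Less" names that library, and the value over the kept 6 follows. The filter on low counts was applied anew with each set of libraries, so the tested members of a list can differ. For a single gene the left-out value lying furthest in the other direction and that over the kept 6 are added where either turns the sign. The 6 were kept after a principal component plot of these same data. Adjusted p and calls over them are therefore not independent of the separation and are given as description only. Notch4 itself, the target of the antibody, was counted at chr17:34783242-34807477 (plus strand, position as in the deposited count table). Its level was 147, 109, 144, 31.4 and 47.9 CPM in control IgG IP 1 to 5 and 123, 30.1, 96.4, 102 and 88.9 CPM in 6-3-A6 IP 1 to 5. The groups overlapped, and the lowest value of each was in its library of lowest endothelial level (log2 fold change -0.12 ± 0.44 (SE), 95% interval -1.07 to 0.83, 0.10 less 6-3-A6 IP 2, 0.78 over the kept 6). 6-3-A6 acts on the receptor protein, so the transcript checks neither the labels nor the block. Dll4, the main endothelial Notch ligand, measured 176, 87.6, 100.0, 23 and 53.5 CPM in control IgG and 65.8, 21.5, 70.8, 83 and 77.4 CPM in 6-3-A6 (log2 fold change -0.47 ± 0.46 (SE), 95% interval -1.48 to 0.54, -0.06 less control IgG IP 1, 0.42 over the kept 6). Control IgG IP 1, at 176 CPM, was above all other libraries for this gene. Notch1 was at 25.7 to 57.7 CPM against 29.6 to 61.3 CPM (0.18, 95% interval -0.38 to 0.74), and Jag1, a ligand also made by mural and tumor cells, at 47.5 to 116 against 34.7 to 75.9 CPM (-0.54, 95% interval -1.11 to 0.03). Of the 8 tested receptors and ligands, 2 had a fold change above 0 and 6 below, with none at an unadjusted p under 0.05 and a median of -0.09 (-0.28 less control IgG IP 4 to -0.01 less control IgG IP 1, 0.24 over the kept 6).

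Among direct Notch targets, Hey1, a transcriptional repressor of the Hairy family, measured 35.6, 24.4, 58.7, 17 and 15.8 CPM in control IgG and 51.8, 19, 50.6, 65.1 and 34.3 CPM in 6-3-A6 (log2 fold change 0.54 ± 0.39 (SE), 95% interval -0.30 to 1.39). Hey1 values overlapped. The 3 highest 6-3-A6 values were in libraries 1, 3 and 4, all kept by the study, while control IgG IP 3, which it left out, was at 58.7 CPM. Over the 6 kept libraries Hey1 was 1.55 higher on the log2 scale (adjusted p = 0.0168). Hes1 was at 76.1, 34.4, 40.5, 38.8 and 31.6 CPM and 31.8, 41.9, 50.9, 49 and 35.2 CPM, and the groups overlapped throughout (-0.08, 95% interval -0.62 to 0.45, 0.20 less control IgG IP 1, 0.33 over the kept 6). Rbpj, the DNA-binding partner of the receptor fragment, and Adam10, the protease of the first activating cut, were at log2 fold changes of -0.14 ± 0.18 and -0.36 ± 0.26 (SE). Of 14 tested target and modifier genes 6 were higher and 8 lower, none at an unadjusted p under 0.05, with a median of -0.09 (-0.13 less control IgG IP 2 to -0.01 less control IgG IP 3, 0.17 over the kept 6). Hey2 and Maml1 did not pass the filter, and Nrarp and Hes5 were listed at 0.

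Among the genes higher in 6-3-A6 with the lowest unadjusted p were Prox1, Zfp687, Git2, Tc2n, Cmpk2, Tbc1d2, Septin1, Spag1 and Rtp4, and all of these but Spag1 and Rtp4 were enriched in IP over input. In control IgG alone the log2 IP over input was 0.76 for Prox1 and 0.63 for Zfp687, below the limit of 1, and 1.21 to 2.9 for the other 5. Prox1, the transcription factor that sets lymphatic endothelial fate, measured 3.54, 1.85, 1.51, 2.63 and 2.27 CPM in control IgG and 2.9, 3.63, 5.1, 6.8 and 7.76 CPM in 6-3-A6 (log2 fold change 1.15 ± 0.33 (SE), 95% interval 0.45 to 1.86). Prox1 was thus counted by few reads in each library, and the highest control value lay above the lowest 6-3-A6 value. Zfp687, a zinc finger protein of the nucleus, was at 56.6, 56.5, 57.6, 39 and 48.3 CPM and 93.7, 97.8, 63.3, 65.6 and 74.9 CPM, without overlap (log2 fold change 0.62 ± 0.18 (SE), 95% interval 0.23 to 1.00). Git2, a GTPase-activating scaffold of the Arf and focal adhesion pathways, also did not overlap, at 159.9, 202, 199, 133 and 167 against 299, 222, 224, 245 and 310.0 CPM (log2 fold change 0.60 ± 0.17 (SE), 95% interval 0.22 to 0.97). For both genes the nearest values of the 2 groups were close, and the kept 6 gave nearly the same fold changes, 0.63 and 0.62, with adjusted p = 0.139 and 0.151. Tbc1d2, a Rab GTPase-activating protein, and Septin1, a filament-forming GTPase, were 0.74 and 0.69 higher on the log2 scale, and 6-3-A6 IP 5 for the first and 6-3-A6 IP 2 for the second lay within the control range. Tc2n was at 1.14 to 1.98 CPM in control IgG and 1.62 to 4.75 CPM in 6-3-A6 (1.08, 95% interval 0.34 to 1.81). Spag1, at 3.14 to 4.18 against 4.26 to 6.85 CPM, did not overlap between groups either (0.55, 95% interval 0.11 to 0.98).

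Cmpk2, an interferon-induced nucleotide kinase of mitochondria, was at 43.1, 36.4, 52.1, 32.7 and 39.9 CPM in control IgG and 54.3, 40.4, 54.4, 93.8 and 109 CPM in 6-3-A6 (log2 fold change 0.78 ± 0.26 (SE), 95% interval 0.22 to 1.35). Rtp4, an interferon-induced transporter chaperone, was at 32.3, 34.5, 59.8, 38.6 and 35 and 50.3, 44.4, 49.7, 67.6 and 99.6 CPM (log2 fold change 0.64 ± 0.25 (SE), 95% interval 0.10 to 1.18). For both genes 6-3-A6 IP 5 and 4 were the highest libraries, and the other 3 lay at or close to the control range. Without 6-3-A6 IP 5 the log2 fold change of Rtp4 was 0.40.

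**Figure D2:**
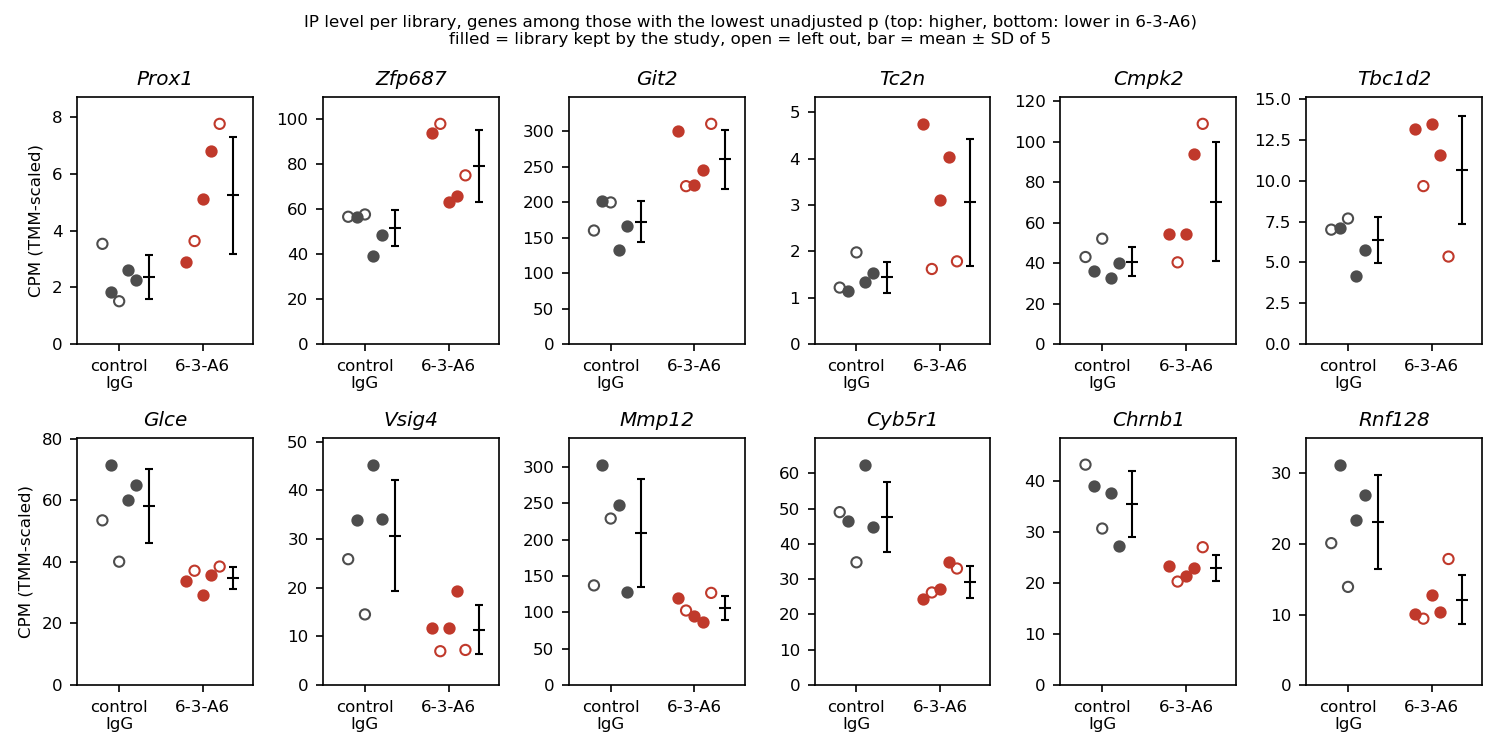
CPM per IP library (y axis, from 0) of 6 genes higher and 6 lower in 6-3-A6 among those with the lowest unadjusted p, with control IgG in gray, 6-3-A6 in red, open symbols for libraries left out by the study and bars for the mean ± SD of 5. Zfp687, Git2, Glce, Mmp12 and Chrnb1 show no overlap between groups, and none of the 12 passed the adjusted threshold over all 10 libraries.

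On the lower side the 10 genes were Glce, Vsig4, Mmp12, Cyb5r1, Chrnb1, Rnf128, Pcolce2, Vldlr, Cdsn and Vipr1. None was enriched in IP over input, and log2 IP over input ran from -1.54 for Cdsn to -0.21 for Glce. Glce (chr9:61964530-62029937, position as in the count table), the epimerase that turns glucuronic into iduronic acid in heparan sulfate, had the lowest p of all genes. Its level was 53.5, 71.6, 40.1, 60.0 and 65 CPM in control IgG and 33.6, 37.1, 29.3, 35.6 and 38.5 CPM in 6-3-A6. The groups did not overlap, and control IgG IP 3 lay only just above the highest 6-3-A6 value (log2 fold change -0.74 ± 0.17 (SE), 95% interval -1.11 to -0.37). In input the log2 fold change was -0.64 ± 0.22 (SE), and the ratio of IP over input differed by -0.07 between treatments.

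Vsig4 (chrX:95290809-95337044, position as in the count table), a complement receptor of tissue macrophages, was at 25.8, 33.8, 14.5, 45.3 and 34 CPM and 11.7, 6.94, 11.7, 19.4 and 7.2 CPM (log2 fold change -1.43 ± 0.34 (SE), 95% interval -2.16 to -0.70). Only control IgG IP 3 reached into the 6-3-A6 range, and 6-3-A6 IP 5, in which the macrophage markers were highest, had one of the 2 lowest Vsig4 values. Mmp12, the macrophage elastase, was at 137, 303, 229, 248 and 129 CPM against 119.7, 103, 95, 86.4 and 127 CPM, without overlap but with control IgG IP 5 and 1 close to the top of the 6-3-A6 values (log2 fold change -0.98 ± 0.24 (SE), 95% interval -1.51 to -0.45). Leaving out each library in turn kept the fold change between -1.71 and -1.23 for Vsig4 and between -1.11 and -0.81 for Mmp12.

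Cyb5r1, a flavin reductase, and Chrnb1, the beta subunit of the muscle acetylcholine receptor, were -0.71 and -0.63 on the log2 scale, with ranges of 34.8 to 62.4 against 24.3 to 34.8 CPM and 27.2 to 43.1 against 20.2 to 27 CPM. Rnf128, a membrane ubiquitin ligase, ranged from 13.9 to 31.3 against 9.41 to 17.9 CPM (-0.94, 95% interval -1.47 to -0.40). For Pcolce2, an enhancer of procollagen processing, the ranges were 19.5 to 42 and 15 to 20.4 CPM (-0.79, 95% interval -1.24 to -0.34). Vldlr, the very low density lipoprotein receptor that also binds reelin, was at 71.7, 110.3, 63.7, 102 and 92 CPM in control IgG and 68.6, 52.6, 56.2, 46.1 and 37.9 CPM in 6-3-A6 (log2 fold change -0.75 ± 0.20 (SE), 95% interval -1.19 to -0.31). Cdsn, an adhesive glycoprotein of cornified epithelium, had a log2 fold change of -1.38 with control IgG IP 4 highest at 24.6 CPM. Vipr1, a receptor of vasoactive intestinal peptide, had one of -1.28 at 1.34 to 7.81 CPM over the 10 libraries. All 10 lower genes, which were picked for their p over these same libraries, stayed at an unadjusted p under 0.05 with any 1 library left out. On the higher side so did Prox1, Zfp687, Git2, Tc2n, Cmpk2 and Tbc1d2, but not Septin1, Spag1 and Rtp4.

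Further genes whose groups did not overlap were picked after their values were seen. Bace1, the beta-secretase, was at 45.3 to 60.9 against 33.9 to 43.4 CPM (-0.35, 95% interval -0.66 to -0.03). Mcoln1, a calcium channel of lysosomes, was at 29.6 to 34.8 against 19.1 to 28 CPM (-0.43, 95% interval -0.74 to -0.11). Rhbdd1, a rhomboid protease, was at 42.2 to 66 against 31.2 to 39.9 CPM (-0.48, 95% interval -0.82 to -0.15). Others on the lower side included Spg7, Htatip2, Gpat3, Irag1, Bcas1, Chrnb2, Gys2, Pianp and 3 unnamed loci, and on the higher side Trmt11 and Nat2.

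Genes enriched in the IP were taken as those with a log2 IP over input above 1 and an adjusted p under 0.05 over both treatments, which gave 1075 of 14488 genes (7.42%). Of the 1072 that were tested here, 868 had a fold change above 0 and 204 below, with a median of 0.25 against 0.01 over all genes. At an unadjusted p under 0.05, 24 of them were higher (2.24%, against 0.36% of all genes tested) and 0 lower (against 1.79%). Enriched genes were 7.88% of all genes tested and 49.0% of the 49 higher ones. The filter on enrichment reads the same 6-3-A6 IP libraries, so a gene that is higher in them passes more easily and these counts are in part set by it. With enrichment taken from the control IgG libraries alone, a choice made after the data were seen, 887 genes passed, 699 above and 188 below 0, with a median of 0.22, and 14 were higher and 2 lower at that p. The median stayed above 0 with any 1 library left out (0.12 to 0.40) and was 0.12 with the endothelial content score as a term, a score that is itself built from endothelial, macrophage, fibroblast and tumor markers of these libraries. The 19 endothelial markers did not share this sign, with 8 above and 11 below 0 and a median of -0.08 (-0.28 less control IgG IP 4 to 0.19 less control IgG IP 1, 0.84 over the kept 6). Over the kept 6 the enriched genes had a median of 0.86, with 289 called higher and 0 lower, where 2.57% and 2.04% of all genes tested in those libraries were. In input, 393 of 801 were above 0, with a median of -0.01.

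The lower end of the enriched genes was led by Ptn, Npr3, Il6, Rnd1 and Selp, none of which reached an unadjusted p of 0.05. Ptn, a heparin-binding growth factor, was at 20.6, 18.8, 13.2, 9.7 and 11.9 CPM and 12.2, 3.38, 7.94, 13.7 and 7.71 CPM (log2 fold change -0.73 ± 0.34 (SE), 95% interval -1.46 to 0.01). Il6, an inflammatory cytokine, and Rnd1, a small GTPase that rounds cells up, were highest in control IgG IP 1. Il6 was at 45.3 CPM there and at 1.67 to 7.28 CPM in the other 9 libraries. Rnd1 was at 142 CPM there against 10.6 to 29.3 CPM elsewhere, and without that library the fold changes were 0.21 and 0.16 in place of -1.32 and -1.08. Over the kept 6, which lack it, they were 0.72 and 0.69. Npr3, the natriuretic peptide clearance receptor, was at 5.93 to 22.2 against 3.25 to 12.1 CPM (-0.69, 95% interval -1.50 to 0.11). Selp, the P-selectin of activated endothelium, was at or below 7.14 CPM in all libraries (-0.87, 95% interval -2.18 to 0.44, -0.20 less control IgG IP 1, 0.12 over the kept 6). Its highest value was again that of control IgG IP 1.

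Endothelial transcription factors were above 0 in 17 of 19 tested, with a median of 0.27 and none at an unadjusted p under 0.05. Sox18, a SoxF factor of vessel development, was at 236, 115, 185, 61.1 and 100.3 CPM in control IgG and 198, 108, 256, 332 and 143 CPM in 6-3-A6 (log2 fold change 0.57 ± 0.37 (SE), 95% interval -0.24 to 1.39). The ETS factors Ets2 and Fli1 were at log2 fold changes of 0.47 ± 0.25 and 0.44 ± 0.25 (SE), with ranges of 155 to 263 against 162 to 405 CPM and 128 to 282 against 159 to 353 CPM. For Ets1 (0.43) and for Tcf4, a helix-loop-helix factor (0.18), the groups overlapped as well. The list median ranged from 0.13 to 0.49 with each library left out, and over the kept 6 it was 0.87, with 8 of 19 called higher, where 2.57% of all genes tested in those libraries were.

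Capillary genes were above 0 in 12 of 13, with a median of 0.21 (0.13 less control IgG IP 4 to 0.48 less control IgG IP 3, 0.72 over the kept 6). Rgcc, a cell cycle regulator found in capillary endothelium, was at 56.1, 24.1, 41.2, 13.1 and 22.6 CPM and 35.5, 20.8, 68.9, 64.5 and 40.4 CPM (log2 fold change 0.55 ± 0.39 (SE), 95% interval -0.31 to 1.41). Gpihbp1, which carries lipoprotein lipase across the capillary wall, was at 81.4 to 531 against 78.7 to 486 CPM (0.21, 95% interval -0.97 to 1.40, -0.02 less control IgG IP 4, 1.56 over the kept 6), and Tcf15, a transcription factor of lipid-handling endothelium, at 0.855 to 1.74 against 0.325 to 3.26 CPM (0.88, 95% interval -0.13 to 1.89). Fabp4, a fatty acid chaperone of adipocytes and capillaries, was at 323, 326, 977, 313 and 404 CPM and 727, 255, 941, 1111 and 559.9 CPM (log2 fold change 0.62 ± 0.41 (SE), 95% interval -0.28 to 1.51). Its 4 highest levels were those of 6-3-A6 IP 4, control IgG IP 3, 6-3-A6 IP 3 and 6-3-A6 IP 1. Over the kept 6, which lack control IgG IP 3, the log2 fold change of Fabp4 was 1.42 (adjusted p = 0.0179). Pparg, the lipid-sensing nuclear receptor, had the same pattern, at 9.06, 7.98, 19.6, 6.47 and 7.21 CPM and 16.4, 8.24, 22.3, 18.3 and 10.6 CPM (0.59, 95% interval -0.16 to 1.35, and 1.40 over the kept 6, adjusted p = 0.0175). Of 16 genes of lipid uptake, 12 were above 0 (median 0.11, 0.00 less control IgG IP 4 to 0.15 less 6-3-A6 IP 2, 0.26 over the kept 6). With the endothelial content score as a term the capillary and lipid medians were 0.02 and 0.01.

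For the VEGF, angiopoietin and Tie axis, 13 of 15 genes were below 0, with a median of -0.17 (-0.30 less control IgG IP 4 to 0.09 less 6-3-A6 IP 2). Over the kept 6 the axis had 8 genes above and 7 below 0, a median of 0.05 and 2 called higher, where 2.57% of all genes tested in those libraries were. Vegfc, the ligand of lymphatic growth, measured 32.3, 28.8, 25.3, 22.6 and 16.2 CPM in control IgG and 22.5, 13.6, 17.8, 17.9 and 18 CPM in 6-3-A6 (log2 fold change -0.48 ± 0.20 (SE), 95% interval -0.92 to -0.04). Control IgG IP 5 was the one control value below the highest 6-3-A6 values. Flt1, a VEGF receptor that also acts as a decoy, was at 131 to 789.5 against 129.9 to 624 CPM (-0.14, 95% interval -1.23 to 0.94, 0.11 less control IgG IP 1, 0.93 over the kept 6), and Nrp2, a co-receptor, at 201 to 391 against 132 to 369 CPM (-0.44, 95% interval -1.05 to 0.16). Angpt2, the antagonist of Tie2, was listed at 0 in all 10 libraries, as were the tip cell genes Esm1, Kcne3 and Adm. The 12 tip cell genes that were tested split 4 above and 8 below 0 (median -0.21, -0.37 less control IgG IP 4 to 0.06 less control IgG IP 1, 0.59 over the kept 6). Igfbp3, which drew the most reads of them, was at 1675 to 11888 against 1326 to 8707 CPM (-0.21, 95% interval -1.41 to 0.98, 0.10 less control IgG IP 1, 0.93 over the kept 6).

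Arterial genes split 4 above and 8 below 0 (median -0.13, -0.26 less 6-3-A6 IP 1 to 0.03 less 6-3-A6 IP 2, 0.43 over the kept 6). Venous genes split 4 and 7 (median -0.05, -0.18 less 6-3-A6 IP 1 to 0.02 less 6-3-A6 IP 2, 0.27 over the kept 6). Within the venous list, Cpe, a carboxypeptidase that trims peptide hormones, was at 733, 868, 533, 550.3 and 337 CPM in control IgG and 451, 256, 321, 217 and 404 CPM in 6-3-A6 (log2 fold change -0.87 ± 0.28 (SE), 95% interval -1.48 to -0.27). Control IgG IP 5 was the only control library inside the 6-3-A6 range, and the interaction with fraction was -0.60 on the log2 scale (input fold change -0.24 ± 0.24, SE). Cpe was not an IP-enriched gene (log2 IP over input -0.38). Efnb2, the arterial ephrin ligand, was at 206 to 275 against 164 to 267 CPM (-0.18, 95% interval -0.54 to 0.19, -0.09 less 6-3-A6 IP 2, 0.05 over the kept 6). Of the other lymphatic markers, the receptor Flt4, the hyaluronan receptor Lyve1 and the matrix protein Mmrn1 were at -0.09 ± 0.47, 0.24 ± 0.34 and 0.52 ± 0.44 (SE) on the log2 scale. Flt4 was at 0.16 with 6-3-A6 IP 2 left out and at 0.74 over the kept 6 (adjusted p = 0.311). Of 7 tested lymphatic markers 5 were above 0, with a median of 0.45 (0.23 less 6-3-A6 IP 5 to 0.83 less control IgG IP 1, 0.82 over the kept 6), and Ccl21a was listed at 0.

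Junction genes were above 0 in 9 of 15 (median 0.26, 0.01 less control IgG IP 4 to 0.23 less 6-3-A6 IP 5, 0.49 over the kept 6). The kept 6 tested 16 junction genes, so these medians are not all over the same members. G protein-coupled receptors and their partners were above 0 in 8 of 17 (median -0.02, -0.12 less 6-3-A6 IP 1 to 0.23 less 6-3-A6 IP 2, 0.55 over the kept 6). Vasotone and flow genes were above 0 in 6 of 12 (median 0.02, -0.17 less 6-3-A6 IP 1 to 0.21 less 6-3-A6 IP 2, 0.21 over the kept 6). Without both control IgG IP 4 and 6-3-A6 IP 2 the junction median was 0.02, and with the endothelial content score as a term 0.02. Jup, the plakoglobin of junctions, was at 70.1, 57.7, 81.1, 37.5 and 57.3 CPM and 66.5, 57.9, 105, 146 and 58 CPM, with 6-3-A6 IP 3 and 4 above all other libraries (log2 fold change 0.51 ± 0.29 (SE), 95% interval -0.11 to 1.13). S1pr1, the sphingosine-1-phosphate receptor of endothelium, was at 135 to 589 against 107 to 592 CPM (0.17, 95% interval -0.83 to 1.16, -0.04 less control IgG IP 4, 1.14 over the kept 6), and Nostrin, a trafficking adaptor of nitric oxide synthase, at 21.6 to 49.6 against 27.1 to 85.5 CPM (0.59, 95% interval -0.13 to 1.30). Ptgs1, the constitutive cyclooxygenase, was the one vasotone gene at an unadjusted p under 0.05, and its log2 IP over input was -0.64. It was at 66.2, 91.7, 44.7, 88.6 and 66.7 CPM in control IgG and 35.2, 48.9, 38.4, 37.1 and 76.7 CPM in 6-3-A6, with 6-3-A6 IP 2 and 5 inside the control range (log2 fold change -0.60 ± 0.25 (SE), 95% interval -1.15 to -0.04).

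Leukocyte adhesion genes were below 0 in 7 of 8, with a median of -0.46 (-0.66 less 6-3-A6 IP 5 to -0.20 less control IgG IP 1). Cx3cl1, the membrane-bound chemokine fractalkine, was at 97, 165, 112, 168 and 149 CPM in control IgG and 72.7, 116, 69, 54 and 110.1 CPM in 6-3-A6 (log2 fold change -0.71 ± 0.24 (SE), 95% interval -1.23 to -0.19). It stayed at an unadjusted p under 0.05 with any 1 library left out (-0.85 to -0.59) and was lower in IP than in input, at a log2 IP over input of -0.96. Vcam1, which binds leukocyte integrins, was at 348, 602, 282, 589 and 424 CPM and 208, 404, 232, 148 and 607 CPM, and 6-3-A6 IP 5 had the highest level of all (-0.49, 95% interval -1.28 to 0.30). Icam1 showed the same, with 37.4 CPM in 6-3-A6 IP 5 against 17.7 to 31.4 CPM in control IgG and 8.65 to 12.1 CPM in the other 6-3-A6 libraries. Among the kept 6, which lack that library, Cx3cl1, Vcam1 and Icam1 were called lower (-1.30, -1.46 and -1.19, adjusted p = 0.0174, 0.0179 and 0.0181), with 2.04% of all genes called lower there. The list as a whole had 5 of 10 tested above and 5 below 0 in the kept 6, with a median of 0.02. Log2 IP over input was -1.02 for Vcam1 and -0.37 for Icam1.

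Coagulation and fibrinolysis genes were below 0 in 14 of 18, with a median of -0.40 (-0.44 less control IgG IP 5 to -0.22 less control IgG IP 1, -0.37 over the kept 6). Plat, the tissue plasminogen activator, was at 143, 266, 125, 217 and 115 CPM and 105, 113, 99.2, 71.3 and 124 CPM (log2 fold change -0.76 ± 0.25 (SE), 95% interval -1.30 to -0.21). Control IgG IP 2 and 4 were the highest, and control IgG IP 5 lay within the 6-3-A6 range. Plat was not an IP-enriched gene (log2 IP over input -0.70). F10, the precursor of the prothrombin-cleaving protease, was at 18.6 to 38.8 against 16.7 to 27 CPM (-0.49, 95% interval -1.01 to 0.03), and Anxa2, a plasminogen co-receptor, at 708 to 1359 against 940.0 to 1286 CPM (0.19, 95% interval -0.27 to 0.64).

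Macrophage markers were below 0 in all 15 that were tested, with a median of -0.32, and 1 was at an unadjusted p under 0.05. Cd163, a hemoglobin scavenger receptor, was at 46.8, 77.4, 54.5, 81.8 and 73.5 CPM in control IgG and 64.9, 47.2, 40.0, 46.1 and 41.6 CPM in 6-3-A6 (log2 fold change -0.48 ± 0.20 (SE), 95% interval -0.91 to -0.05). Lyz2, the lysozyme of myeloid cells, was at 2721, 2961, 2078, 4034 and 3306 CPM and 1747, 1652, 1842, 1550.2 and 3706 CPM, and Apoe, a lipid carrier, at 2625, 3623, 2782, 4068 and 2984 CPM and 2299, 2071, 2265, 1534 and 4025 CPM. For both, 4 of the 6-3-A6 libraries lay below every control library, while 6-3-A6 IP 5 was the second highest for Lyz2 and for Apoe of all 10 (log2 fold changes -0.52 ± 0.29 and -0.40 ± 0.27, SE). The 15 tested markers summed to 8888 to 14284 CPM in control IgG and 5696 to 17050.2 CPM in 6-3-A6, and the list median was -0.76 without 6-3-A6 IP 5, -0.22 without 6-3-A6 IP 4 and -0.90 over the kept 6. In input the median was -0.08.

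Among myeloid genes outside that list, Spp1, the secreted matrix protein osteopontin, was at 2252, 2804, 1884, 3722 and 1516 CPM in control IgG and 1204, 1810.4, 1137, 764 and 1577 CPM in 6-3-A6 (log2 fold change -0.91 ± 0.30 (SE), 95% interval -1.55 to -0.27). Control IgG IP 5 was the only control below the highest 6-3-A6 library, and all 10 fits with 1 library left out kept an unadjusted p under 0.05. Ccl9, a chemokine of myeloid cells, was at 171 to 347 against 130.3 to 182 CPM (-0.50, 95% interval -0.95 to -0.04). The chemokine and cytokine list had 12 of 17 below 0 (median -0.29, -0.47 less 6-3-A6 IP 5 to -0.15 less control IgG IP 1, -0.51 over the kept 6). Ccl2 and Ccl6 were listed at 0. Clec7a, the beta-glucan receptor dectin-1, was at 152, 181, 91.4, 297 and 216 CPM and 93.4, 114, 107, 90.4 and 191 CPM (log2 fold change -0.65 ± 0.30 (SE), 95% interval -1.31 to -0.00). Toll-like and scavenger receptors, 13 of 15, were below 0 (median -0.22, -0.54 less 6-3-A6 IP 5 to -0.06 less control IgG IP 5, -0.91 over the kept 6). Neutrophil markers had 5 of 6 tested below 0 (median -0.19, -0.48 less 6-3-A6 IP 2 to -0.03 less control IgG IP 3, -0.33 over the kept 6). Mast cell and eosinophil markers had 4 of 6 tested above 0 (median 0.14, -0.68 less 6-3-A6 IP 5 to 0.36 less 6-3-A6 IP 2, -0.54 over the kept 6). Siglecf, a lectin of eosinophils and some macrophages, was at 0.524 to 2.16 against 0.177 to 1.45 CPM (-1.32, 95% interval -2.53 to -0.11). It was counted by few reads, and its lowest value lay within the range given for the limit of detection. The mast cell proteases Mcpt4 and Tpsb2 were at log2 fold changes of 0.53 ± 0.67 and -0.03 ± 0.53 (SE) and highest in 6-3-A6 IP 5, at 64.9 and 58.5 CPM. Without that library their fold changes were -0.75 and -0.68.

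All 12 T and NK cell markers were above 0, with a median of 0.50 (at most 0.72, less 6-3-A6 IP 1), and 1 library, 6-3-A6 IP 5, was far above the rest. Cd8a, the co-receptor of cytotoxic T cells, was at 8.49, 6.41, 8.33, 8.62 and 11.7 CPM in control IgG and 7.96, 7.2, 6.16, 6.36 and 51.9 CPM in 6-3-A6 (log2 fold change 0.87 ± 0.57 (SE), 95% interval -0.38 to 2.12, -0.33 less 6-3-A6 IP 5, -0.38 over the kept 6). Cd3e, part of the T cell receptor complex, was at 2.51, 3.14, 3.26, 4.92 and 7.21 CPM and 3.7, 2.08, 3.15, 2.43 and 32.2 CPM (log2 fold change 1.05 ± 0.72 (SE), 95% interval -0.53 to 2.62, -0.57 less 6-3-A6 IP 5, -0.72 over the kept 6). The list summed to 389 CPM in 6-3-A6 IP 5, against 50.0 to 107 CPM in the other 9 libraries, and without that library its median was -0.53 and over the kept 6 -0.67. Gzmb, a killer cell protease, was at 58.8 CPM there and at 3.21 to 21.4 CPM elsewhere. B and plasma cell markers split 2 and 2 (median -0.12, -0.29 less control IgG IP 1 to 0.28 less control IgG IP 4, -0.36 over the kept 6). Ighm was highest in control IgG IP 2 at 98.6 CPM.

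Interferon-stimulated genes were above 0 in all 21 tested, with a median of 0.33 (at most 0.53, less control IgG IP 3), and 1 at an unadjusted p under 0.05. Ifit1, an RNA-binding effector, was at 36.5, 41.2, 56.9, 44 and 48.4 CPM in control IgG and 49.4, 68.4, 47.7, 52.5 and 118 CPM in 6-3-A6 (log2 fold change 0.56 ± 0.25 (SE), 95% interval 0.02 to 1.11), and its partner Ifit3 at 31.1, 40.1, 70.9, 44.4 and 41.1 CPM and 51.8, 49.9, 52.1, 55.4 and 158 CPM (log2 fold change 0.69 ± 0.35 (SE), 95% interval -0.06 to 1.44). 6-3-A6 IP 5 was again the highest for both, and without it the list median was -0.04 (-0.07 over the kept 6) and the fold changes 0.26 and 0.20. Cxcl9, a chemokine that interferon gamma induces, was at 1509.7 CPM in 6-3-A6 IP 5 against 186 to 764 CPM in the other 9 libraries, and Gbp2, a guanylate-binding GTPase, was at 204 to 582 against 178 to 853 CPM (0.22, 95% interval -0.73 to 1.17, -0.24 less 6-3-A6 IP 5, -0.83 over the kept 6). The list summed to 1684 to 3067 CPM in control IgG and 1489 to 5640.1 CPM in 6-3-A6. In input all 21 were above 0 too, with a median of 0.31. Antigen presentation genes, by contrast, were below 0 in 10 of 14 (median -0.13, -0.92 less 6-3-A6 IP 5 to 0.05 less 6-3-A6 IP 2, -0.63 over the kept 6). Cd74, the invariant chain of class II molecules, was at 410.4 to 1903 against 456 to 2768 CPM.

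The promoters of Ifit1 and Ifit3 are shown because these members had the lowest p of the list, and because interferon drives such genes through a known element. They are the 250 bases before the RefSeq start (GRCm38.p6, plus strand), at chr19:34640639-34640888 and chr19:34583279-34583528, with matches to the response element core, GAAA followed after any 2 bases by GAAA, or TTTC so repeated on the other strand, in capitals.
Ifit1: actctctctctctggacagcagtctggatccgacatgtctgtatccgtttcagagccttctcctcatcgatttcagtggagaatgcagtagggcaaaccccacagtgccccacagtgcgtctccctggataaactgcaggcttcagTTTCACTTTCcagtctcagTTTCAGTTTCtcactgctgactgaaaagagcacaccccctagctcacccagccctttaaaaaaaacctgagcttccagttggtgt
Ifit3: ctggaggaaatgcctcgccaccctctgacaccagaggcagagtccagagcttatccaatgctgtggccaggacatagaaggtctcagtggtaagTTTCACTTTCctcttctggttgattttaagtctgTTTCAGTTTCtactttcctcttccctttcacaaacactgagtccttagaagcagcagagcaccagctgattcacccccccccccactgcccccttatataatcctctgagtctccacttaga
Both promoters held 2 matches, which began at bases -104 and -85 for Ifit1 and -156 and -122 for Ifit3, counted from the start. Of 18 interferon-stimulated genes with a window, 12 held at least 1 match (66.7%), against 3.48% of 10359 tested genes with a window. None of the 6 matched genes among the 10 higher ones held it, and no window was found for the others. A match is a stretch of letters and was not tested as a binding site.

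**Figure D3:**
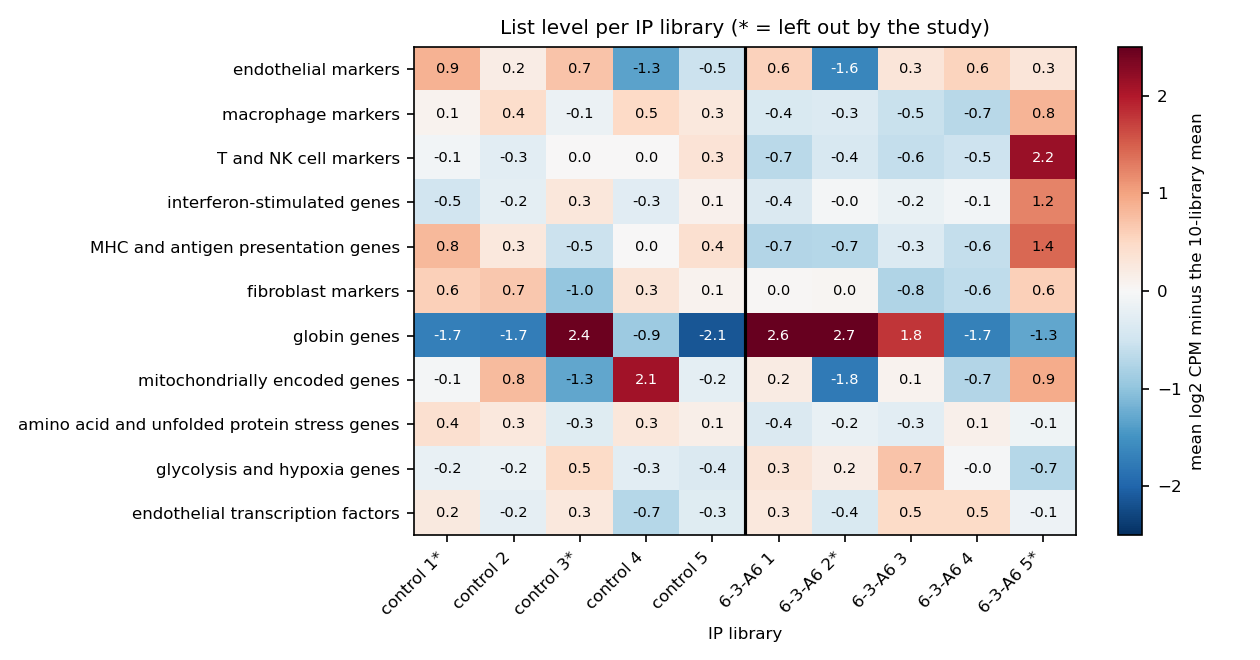
Mean log2 CPM of the tested members of 11 gene lists (rows) in each IP library (columns), less the mean of the 10 libraries, from blue (lower) through white to red (higher), with an asterisk for libraries left out by the study. 6-3-A6 IP 5 stands out for T and NK cell, interferon and antigen presentation genes, control IgG IP 4 for mitochondrially encoded genes, and control IgG IP 3 with 6-3-A6 IP 1, 2 and 3 for globin genes.

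Stress genes of amino acid shortage and protein folding were below 0 in 17 of 20, with a median of -0.33 (-0.44 less control IgG IP 3 to -0.24 less 6-3-A6 IP 1, -0.48 over the kept 6). Slc7a11, the cystine importer, was at 17.7, 27.1, 14.8, 33.1 and 47.9 CPM in control IgG and 15.9, 19.3, 18.5, 15 and 13.8 CPM in 6-3-A6 (log2 fold change -0.77 ± 0.29 (SE), 95% interval -1.39 to -0.15). Control IgG IP 3 and 1 lay within the 6-3-A6 range and the other 3 controls above it. Slc3a2, the heavy chain that Slc7a11 pairs with, was at 183, 152, 118, 169.9 and 136 CPM and 111, 110.0, 109, 119 and 134 CPM (log2 fold change -0.38 ± 0.15 (SE), 95% interval -0.72 to -0.05). The third at an unadjusted p under 0.05 was Slc7a5, another partner of Slc3a2 that imports large neutral amino acids, named after its value was seen, at 137, 109.9, 43.2, 122 and 92.9 CPM and 59.1, 54.7, 50.6, 97.7 and 66 CPM (log2 fold change -0.62 ± 0.28 (SE), 95% interval -1.24 to -0.01). The chaperones Hspa5 and Calr, the members with the most reads, were at -0.34 ± 0.29 and -0.47 ± 0.30 (SE) on the log2 scale, each with its highest level in 6-3-A6 IP 5. Less that library they were at -0.69 and -0.84. In input 17 of 20 were also below 0, with a median of -0.29.

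The promoter of Slc7a11 is shown because it had the lowest p in that list and Atf4, the transcription factor of the amino acid response, binds an element with the core TGATGNAA. It is the 250 bases before the RefSeq start (GRCm38.p6, minus strand), at chr3:50443614-50443863, with matches to the core or its reverse complement TTNCATCA in capitals.
Slc7a11: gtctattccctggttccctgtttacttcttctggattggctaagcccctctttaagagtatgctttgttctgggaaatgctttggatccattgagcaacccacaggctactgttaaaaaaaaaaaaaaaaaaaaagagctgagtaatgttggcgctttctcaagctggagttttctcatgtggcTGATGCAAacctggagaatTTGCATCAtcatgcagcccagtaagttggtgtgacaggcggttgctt
The 2 matches began at bases -66 and -47. The core was found in 4 of 19 stress genes with a window (21.1%), against 2.55% of the tested genes. Of the 10 lower genes with the lowest p, Vldlr held it.

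Glycolysis and hypoxia genes were above 0 in 19 of 20, with a median of 0.25 (0.13 less 6-3-A6 IP 3 to 0.40 less control IgG IP 3, 0.53 over the kept 6) and none at an unadjusted p under 0.05. Pkm, the last enzyme of glycolysis, was at 1510.3, 1485, 1809, 1290.3 and 1683 CPM in control IgG and 1544, 2835, 1986, 2090.4 and 1466 CPM in 6-3-A6 (log2 fold change 0.35 ± 0.22 (SE), 95% interval -0.13 to 0.83). Ndrg1, a gene induced by hypoxia, was at 45.1, 69.2, 144, 56 and 61.3 CPM and 164, 119.9, 186, 81.4 and 35.8 CPM, from lowest to highest within 6-3-A6 a wider range than in control IgG (log2 fold change 0.65 ± 0.41 (SE), 95% interval -0.26 to 1.55). Ldha, which makes lactate, was at 774 to 1218 against 886 to 1334 CPM (0.23, 95% interval -0.19 to 0.66). Hif1a and Adm were listed at 0. Cell cycle genes were above 0 in 21 of 24 (median 0.15, 0.03 less control IgG IP 3 to 0.29 less 6-3-A6 IP 3). Top2a, the topoisomerase of dividing cells, was at 296 to 956 against 250.4 to 846 CPM, and Ccna2, the cyclin of S phase and mitosis, at 0.60 ± 0.30 (SE) on the log2 scale. The list median over the kept 6 was -0.24.

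Immediate early genes had 9 of 20 above 0 (median -0.04, -0.12 less control IgG IP 3 to 0.21 less control IgG IP 1, 0.34 over the kept 6). Egr1, a serum-induced zinc finger factor, was at 213, 96.2, 88.2, 82.8 and 107 CPM and 61.9, 77, 80.3, 85 and 91.5 CPM (log2 fold change -0.57 ± 0.25 (SE), 95% interval -1.12 to -0.02), and without control IgG IP 1 its fold change was -0.24. Dusp1, a phosphatase of MAP kinases, was at 108, 48.7, 77.9, 24.7 and 47.4 CPM and 93.3, 53.2, 135, 101 and 114 CPM in the opposite direction (log2 fold change 0.69 ± 0.35 (SE), 95% interval -0.07 to 1.46). Heat shock genes were above 0 in 9 of 13 (median 0.12, -0.13 less 6-3-A6 IP 2 to 0.21 less 6-3-A6 IP 3, -0.05 over the kept 6). Hsp90ab1 and Hspa8, those with the most reads, were at -0.03 and 0.11.

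The 7 tested mitochondrially encoded genes were all below 0, with the lowest list median, -0.74 (-1.15 less 6-3-A6 IP 5 to -0.01 less control IgG IP 4, -1.24 over the kept 6). mt-Co1, a subunit of cytochrome oxidase, was at 5223, 12684, 4314, 32549 and 6316 CPM in control IgG and 10850.3, 2421, 9373, 5066 and 16749 CPM in 6-3-A6 (log2 fold change -0.46 ± 0.61 (SE), 95% interval -1.79 to 0.87, 0.32 less control IgG IP 4, -1.03 over the kept 6). mt-Nd1, a subunit of complex I, was at 3559, 5954, 973, 19213 and 2973 CPM and 3419.7, 1018, 4128, 2159 and 5481 CPM (log2 fold change -1.01 ± 0.67 (SE), 95% interval -2.47 to 0.44). Control IgG IP 4, the control library of lowest endothelial level, was above the rest, and without it the list median was -0.01. Without that library and 6-3-A6 IP 2 it was 0.23, and with the endothelial content score as a term -0.13. In input, 6 of 7 were above 0.

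Globin genes were above 0 in 4 of 4, with the highest list median, 1.26 (0.90 less 6-3-A6 IP 2 to 3.33 less control IgG IP 3, 3.21 over the kept 6). Hbb-bs, an adult beta globin, was at 19.1, 19.6, 310.4, 29.6 and 15.2 CPM in control IgG and 368, 473, 195, 20.9 and 25.9 CPM in 6-3-A6 (log2 fold change 1.46 ± 1.02 (SE), 95% interval -0.75 to 3.67). Control IgG IP 3 and 6-3-A6 IP 1, 2 and 3 were high, the other 6 low, so that both groups held both kinds. In input all 4 globin genes were above 0 too, with a median of 1.04. Hbb-bs was lower in IP than in input, at a log2 IP over input of -0.86. The 2 globin-high 6-3-A6 libraries 1 and 3 were kept and the globin-high control IgG IP 3 was not. Over the kept 6 the log2 fold change of Hbb-bs was 3.18 (adjusted p = 0.0388). The near-identical alpha genes Hba-a1 and Hba-a2 can share reads, so their separate values are uncertain. Among erythroid genes without globin, Tfrc, the transferrin receptor, was at -0.48 ± 0.31 (SE) on the log2 scale, and Alas2, the erythroid heme enzyme, was listed at 0.

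Extracellular matrix genes of the basement membrane lay below 0 in 13 of 14 (median -0.21, -0.33 less 6-3-A6 IP 5 to -0.06 less control IgG IP 1, -0.24 over the kept 6). Interstitial matrix genes were below 0 in 13 of 15 (median -0.26, -0.60 less 6-3-A6 IP 5 to -0.10 less 6-3-A6 IP 3, -1.05 over the kept 6). Over the kept 6 all 15 interstitial matrix genes were below 0 and 7 were called lower, where 2.04% of all genes tested in those libraries were. In input 14 of 14 basement membrane and 14 of 15 interstitial matrix genes were below 0, with medians of -0.31 and -0.36. Mmp9, a gelatinase, was at 14.5, 29.1, 16.1, 27 and 17.2 CPM in control IgG and 11.2, 16.9, 9.0, 6.69 and 12.8 CPM in 6-3-A6 (log2 fold change -0.88 ± 0.28 (SE), 95% interval -1.48 to -0.27). It stayed at an unadjusted p under 0.05 with any 1 library left out, and in input it was -0.55 ± 0.21 (SE). Col6a1, a chain of microfibrillar collagen, was at 433, 919, 275, 595 and 424 CPM and 278, 517, 217, 136 and 359 CPM (log2 fold change -0.81 ± 0.37 (SE), 95% interval -1.63 to 0.00). Lamb1, a laminin chain, was at 391 to 917 against 325 to 649 CPM (-0.50, 95% interval -1.09 to 0.10), whereas Col4a1, a chain of basement membrane collagen, was at 0.01 (-0.13 to 0.19 with 1 library left out). Fn1, fibronectin, was highest in 6-3-A6 IP 2 and control IgG IP 5, at 10601 and 8841 CPM, against 1277 to 3933 CPM in the other 8 libraries.

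Fibroblast markers were below 0 in 11 of 12 (median -0.35, -0.65 less 6-3-A6 IP 5 to -0.14 less control IgG IP 1, -0.83 over the kept 6). Mural cell markers were below 0 in 10 of 11 (median -0.37, -0.46 less control IgG IP 3 to -0.13 less control IgG IP 1, -0.56 over the kept 6). Tumor and epithelial markers were below 0 in 7 of 9 (median -0.29, -0.61 less control IgG IP 3 to -0.01 less control IgG IP 2, -0.83 over the kept 6). Col1a1, the main fibrillar collagen chain, was at 1354, 924, 167, 489 and 415 CPM and 468, 407, 194, 281 and 1274 CPM (-0.35, 95% interval -1.59 to 0.88, 0.07 less control IgG IP 1, -0.95 over the kept 6). Cspg4, the NG2 proteoglycan of pericytes, was at 3.92, 6.84, 1.05, 3.91 and 4.38 CPM and 0.926, 2.99, 1.46, 0.829 and 2.62 CPM (log2 fold change -1.19 ± 0.48 (SE), 95% interval -2.23 to -0.16). Cdh1, the epithelial cadherin, was at 55.3, 36.6, 12.9, 32.3 and 20.8 CPM and 11, 21.2, 12.4, 9.84 and 26.6 CPM (log2 fold change -0.96 ± 0.38 (SE), 95% interval -1.80 to -0.13), with control IgG IP 3 and 5 in the 6-3-A6 range and 6-3-A6 IP 2 and 5 in the control range. Krt8, a keratin of simple epithelium, was at 112, 146, 106, 165 and 187 CPM and 90.1, 279.9, 107, 124 and 103 CPM (log2 fold change -0.02 ± 0.31 (SE), 95% interval -0.69 to 0.64). Its highest level was that of 6-3-A6 IP 2, and its fold change was -0.43 without that library and -0.63 over the kept 6 (adjusted p = 0.11). The part of these cell types in the matrix and macrophage values was not tested. Adipocyte markers split 4 above and 6 below 0 (median -0.01, -0.57 less 6-3-A6 IP 5 to 0.27 less control IgG IP 5, -0.94 over the kept 6). Skeletal muscle markers split 3 and 2 (median 0.11, -0.19 less 6-3-A6 IP 1 to 0.43 less control IgG IP 4, -0.06 over the kept 6). Platelet markers split 2 and 1 (median 0.13, -0.10 less control IgG IP 1 to 0.15 less control IgG IP 3, 0.29 over the kept 6).

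Among guidance genes, 16 of 20 semaphorin, plexin, Slit and Robo members were below 0 (median -0.22, -0.40 less 6-3-A6 IP 5 to -0.14 less control IgG IP 2, -0.10 over the kept 6). Ntn1, the guidance ligand netrin-1, was at 105, 149, 94.6, 131 and 95.2 CPM in control IgG and 74.9, 107, 75.4, 45.1 and 86.1 CPM in 6-3-A6 (log2 fold change -0.57 ± 0.22 (SE), 95% interval -1.05 to -0.08). Its log2 IP over input was -0.50. Plxnd1, the endothelial plexin, was at 238 to 545 against 152 to 454 CPM (-0.14, 95% interval -0.83 to 0.55, 0.05 less 6-3-A6 IP 2, 0.31 over the kept 6). TGF-beta and BMP pathway genes were above 0 in 11 of 17 (median 0.02, -0.05 less control IgG IP 1 to 0.16 less control IgG IP 3, 0.29 over the kept 6). They ran from Bmper, a BMP-binding protein, at -0.59 ± 0.28 to Smad1, a transducer of BMP signals, at 0.47 ± 0.28 (SE).

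**Figure D4:**
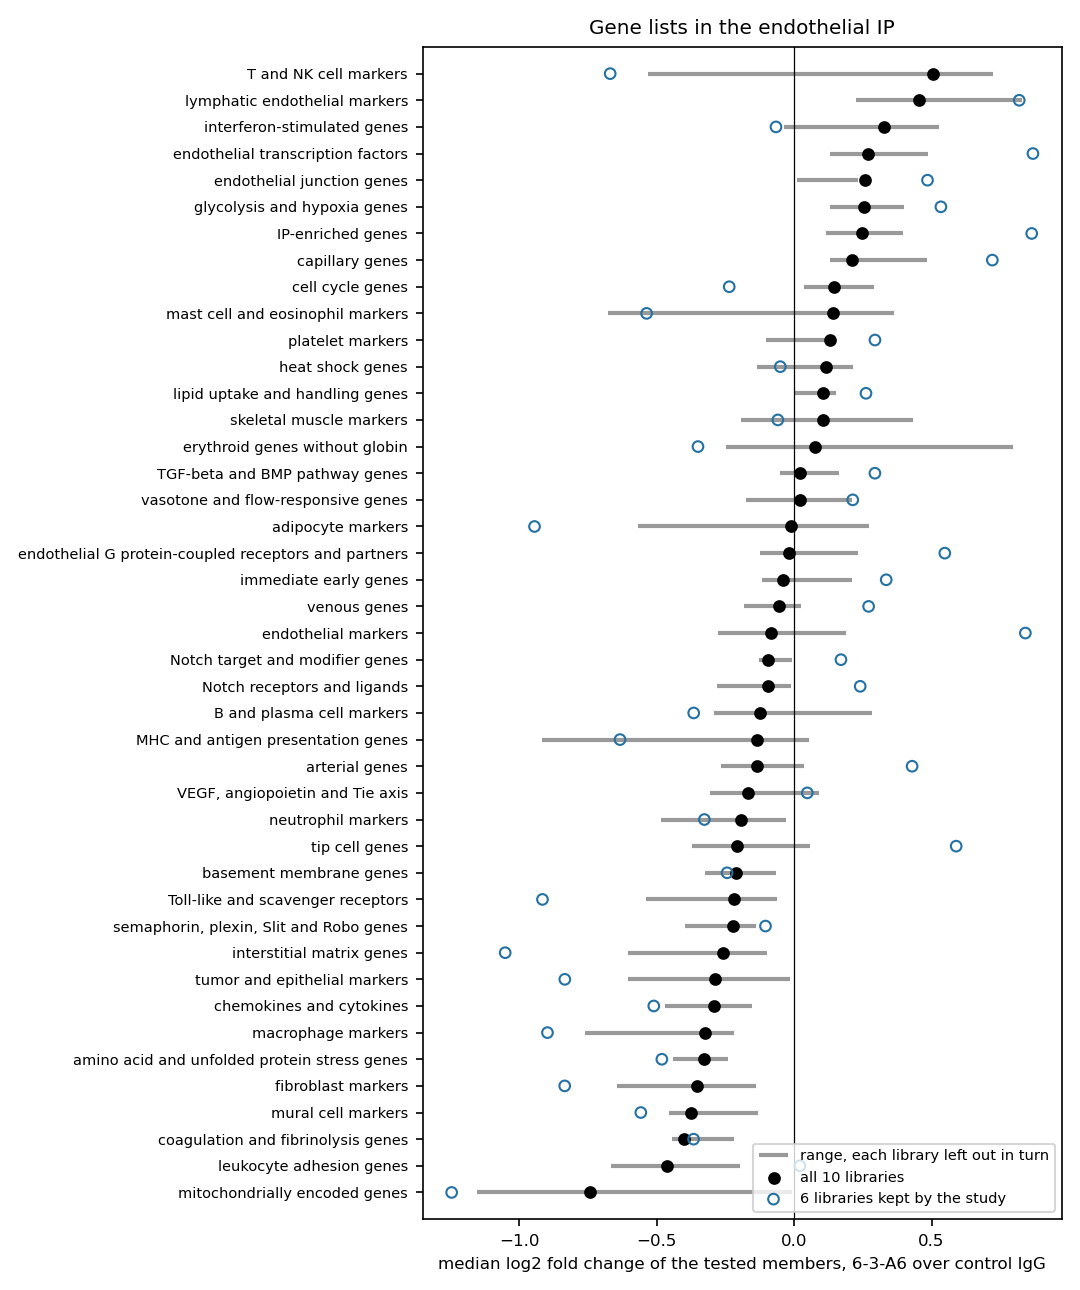
Median log2 fold change (x axis) of the tested members of 42 of the 43 gene lists and of the IP-enriched genes, with black points for all 10 libraries, gray bars for the range when each library is left out in turn and open blue circles for the 6 libraries kept by the study. Globin genes are left off for scale. The blue circles of the endothelial lists lie to the right of the black points and those of macrophage, interstitial matrix and fibroblast lists to the left.

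Over the 6 libraries kept by the study, which are part of the 10 and are no separate evidence, 646 of 13999 genes were called (4.61%), 360 higher (2.57%) and 286 lower (2.04%). These calls, like every p over the kept 6, are not independent of how the libraries were picked. Leaving out 1 of the 6 gave 9 calls without 6-3-A6 IP 3, 161 without 6-3-A6 IP 4, 188 without control IgG IP 4 and 345 without 6-3-A6 IP 1. The 5 with the lowest p on the higher side were Krt20, Lpin3, Hrct1, Afap1l1 and Prrg3, all enriched in IP over input. Krt20, a keratin otherwise known from gut epithelium, was at 10.9, 5.37, 23.2, 2.96 and 4.12 CPM in control IgG and 25.8, 9.67, 33.8, 21.7 and 4.47 CPM in 6-3-A6. Its log2 fold change was 2.7 over the kept 6 (adjusted p = 0.00794) and 1.04 ± 0.60 (SE) over all 10. Control IgG IP 3, which was left out, was at the level of 6-3-A6 IP 1, 3 and 4, and 6-3-A6 IP 5, also left out, at that of the low controls.

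Lpin3, a phosphatidate phosphatase, followed the same libraries at 10.1, 10.1, 25.1, 7.68 and 8.11 CPM and 31.8, 13.1, 35.6, 24.6 and 9.05 CPM (1.83 over the kept 6 and 0.90, 95% interval -0.00 to 1.81 over all 10). Afap1l1, an actin-binding adaptor, was at 26.8, 38, 95, 21.8 and 30.5 CPM and 94.9, 45, 126, 93.7 and 25.1 CPM (1.80 and 0.86). Hrct1 and Prrg3 had log2 fold changes of 2.10 and 1.36 over the kept 6 and of 0.34 and 0.49 over all 10. In each of the 5 genes, control IgG IP 3 was above every other control library.

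The 5 called lower with the lowest p were Itgax, Mgl2, Plxdc2, H2-M2 and Olfml3, none enriched in the IP. Itgax, the CD11c integrin of dendritic cells and macrophages, was at 65.4, 126, 18.9, 58.7 and 80.8 CPM and 13.8, 22.3, 13.1, 15.5 and 89.7 CPM (-2.64 over the kept 6, adjusted p = 0.00794, and -1.18, 95% interval -2.46 to 0.10 over all 10). Mgl2, a galactose lectin of macrophages and dendritic cells, was at 94.2, 99.5, 15.4, 102 and 72.3 CPM and 17.3, 21.9, 21.7, 26.2 and 79.9 CPM (-2.07 and -1.20, 95% interval -2.31 to -0.09). For H2-M2, a nonclassical MHC gene, the values were 9.19, 9.5, 1.63, 8.08 and 7.21 CPM and 0.802, 0.584, 2.04, 0.94 and 6.65 CPM (-2.67 and -1.68, 95% interval -3.08 to -0.29). In all 3, control IgG IP 3 was at the 6-3-A6 level and 6-3-A6 IP 5 at the control level. Plxdc2 and Olfml3 were -1.82 and -1.63 over the kept 6 and -0.81 and -0.75 over all 10.

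The genes that varied most between libraries of 1 group, among those at 10 CPM or more, were Gzmg, Gbp2b, Hbb-bt, Gzmd and Chil3. Gzmd and Gzmg, granzymes of a mouse cluster whose near-identical members can share reads, were at 59.7, 3.42, 54, 2.63 and 0.858 CPM and 53.6, 0.903, 36.6, 2.22 and 0.258 CPM in control IgG, and at 3.76, 27.1, 8.25, 2.49 and 39.7 CPM and 1.48, 25.9, 6.69, 1.44 and 23.8 CPM in 6-3-A6. High and low libraries occurred in both groups. Gbp2b, an interferon-induced GTPase, was high in control IgG IP 5 and 6-3-A6 IP 5 alone, at 81.5 and 115 CPM against 0.864 to 16.2 CPM elsewhere. Chil3, a chitinase-like protein of activated macrophages, was at 59.5, 64.9, 75.2, 29.4 and 2.62 CPM and 23.8, 156, 37.1, 5.2 and 2.01 CPM.

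In input, none of 13683 genes passed the adjusted threshold (0%) by edgeR and none by DESeq2, and 180 (1.32%) had an unadjusted edgeR p under 0.05, against 220 by DESeq2. The test of whether the treatment difference was another one in IP than in input, with each tumor as a block, called 0 of 14488 genes (0%) by edgeR and by DESeq2, with 140 (0.966%) and 159 at an unadjusted p under 0.05. All adjusted p in both were 1.00. Of the genes with the lowest p named above, Zfp687, Pcolce2, Tbc1d2 and Lpin3, picked after their values were seen, had interactions of 0.87, -0.61, 0.74 and 0.92 on the log2 scale. In input the same genes were at -0.11 ± 0.32, -0.13 ± 0.15, -0.04 ± 0.26 and 0.01 ± 0.33 (SE). Vsig4 was at -0.72 ± 0.47 and Cdsn at -1.02 ± 0.27 (SE) in input.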

How the data were processed

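RNA-seq of 20 Py8119 tumor libraries (10 tumors, IP and input) was analysed as the deposited table of raw read counts per gene, which the authors made, per the study's methods and the submitters' processing notes, with STAR 2.7.4a and featureCounts (1.5.2 and 2.0.1 are both named) on mm10, with GRCh38 named in the notes as well. Gene positions are those of the table: 425 of 38937 genes shared a start or end with a GRCm38 annotation, so they were not mixed with GRCm38 windows. The authors' table of fold changes and p-values was not used. The table held 55866 genes, of which 25372 were at 0 in all 20 libraries, B2m and Cav1 among them, and such a 0 was read only as listed.

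Titles gave group and fraction. The labels describe separate tumors, and no other batch is given in them. Counts were tested with edgeR 4.0.16 (R 4.3.3, TMM factors, filterByExpr, quasi-likelihood F test, treatment as the only term), with Benjamini-Hochberg adjustment over all tested genes and 0.05 as the threshold, on all 10 IP libraries, the 6 that the study kept, the 10 input libraries and, with tumor as a block, all 20. DESeq2 1.42.0 and limma 3.58.1 served as alternatives. Standard errors came from the F statistic. Log2 CPM used a prior count of 2. The code was tested on simulated data. Limits of detection from counts cover counting error only, and the intervals of fold changes also the spread between libraries. No IP libraries were alike within sampling noise, the smallest median chi-square between replicates being 3.73 against 0.455.

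The 43 gene lists and the members were chosen with earlier results of these data known. Named genes were Notch4, Notch1, Dll4, Hes1 and Hey1, the 10 higher and 10 lower with the lowest p at 2 CPM or more, in each list the 2 members with the highest CPM and the 2 with the lowest p, the 5 lowest p in each direction over the kept 6, the 5 of widest spread at 10 CPM or more, and the 5 IP-enriched genes in each direction with the lowest p. A few genes of this rule are not reported here. Promoters were taken from RefSeq (GRCm38.p6). Control IgG and 6-3-A6 libraries share replicate numbers. Same-numbered libraries deviated from their group means with correlations of -0.09, -0.07, 0.40, -0.22 and 0.08, so the numbers were not taken as pairs.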

Additional observations from a re-analysis of the deposited data

Results flagged for a closer look

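For 129 genes and 3 scores, each group of 5 libraries was searched for a library far from the other 4 by Dixon's ratio on the log2 scale. This marked 34 of 264 groups, where chance alone marks about 1 in 20, and the genes are not independent of each other. No interaction of treatment with fraction passed its threshold.

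In 6-3-A6 IP 2 the endothelial score was 5.2, below 7.03 to 7.29 in the other 6-3-A6 libraries. The endothelial genes Cdh5, Pecam1, Dll4, Flt4, Gpihbp1, Notch4 and Plxnd1 were the lowest of their group there, at 235, 204, 21.5, 20.4, 78.7, 30.1 and 152 CPM. Krt8 was the highest, at 279.9 CPM.

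In 6-3-A6 IP 5 the macrophage score was 8.22, above 6.78 to 7.10 in the other 6-3-A6 libraries. The immune cell genes Lyz2, Itgax, Mgl2, Cd3e and Cd8a were the highest of their group, at 3706, 89.7, 79.9, 32.2 and 51.9 CPM, and so were Icam1, Ifit3, Hspa5 and Olfml3, at 37.4, 158, 1207 and 126 CPM. In 6-3-A6 IP 4, Bace1 and Bmper were the lowest, at 33.9 and 3.65 CPM.

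In control IgG IP 3, Fabp4, Lpin3, Prrg3, Rtp4 and Hbb-bs were the highest, at 977, 25.1, 93.3, 59.8 and 310.4 CPM, and H2-M2, Mgl2 and Tfrc the lowest, at 1.63, 15.4 and 39.1 CPM. Egr1 and Hes1 were highest in control IgG IP 1, at 213 and 76.1 CPM. Hspa8 was lowest in control IgG IP 2, at 1310.3 CPM, and Chil3 and Tpsb2 in control IgG IP 5, at 2.62 and 7.94 CPM. What set these libraries apart was not tested.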

How the results depend on the processing

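Over all 10 IP libraries, edgeR called 0 genes under each alternative tried on them, and DESeq2 and limma with voom did as well, whereas the kept 6 libraries gave 646. Genes at an unadjusted p under 0.05, 292 as reported, numbered 825 without a filter on low counts, 2659 with voom quality weights (1203 higher and 1456 lower), 2724 over the kept 6, 183 for IP minus input and, added after the data were seen, 170 without control IgG IP 4 and 6-3-A6 IP 2. With 1 library left out they ranged from 135 to 989, passing 1.5 times the reported count without control IgG IP 3 (740), control IgG IP 5 (450) and 6-3-A6 IP 5 (989) and falling below it by that factor without control IgG IP 2 (135) or 4 (137) and 6-3-A6 IP 3 (177) or 4 (165). Of the 292 genes, which were chosen for their p over these libraries, 291 kept their sign under voom and 263 in IP minus input, and 1 changed sign with a library left out, control IgG IP 5. They stayed at an unadjusted p under 0.05 less widely, 26 of them in IP minus input, 145 with the replicate block, 89 of 290 tested without control IgG IP 4 and 6-3-A6 IP 2, and 110 (control IgG IP 4) to 264 (control IgG IP 3) with 1 library left out. Of the 187 genes of the naming rule, 162 to 181 kept their sign with 1 library left out and 147 over the kept 6.

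With the replicate number as a block, 0 genes were called and 228 were at an unadjusted p under 0.05 in IP, and 99 in input, and it changed no call. The interaction without the replicate block gave 0, and without a filter on low counts 2, both ribosomal protein pseudogenes. Calls over the kept 6 numbered 1251 by DESeq2, 1459 without a filter on low counts, and 9 to 653 with 1 of the 6 left out. The score differences over the kept 6 were 0.99 for endothelial markers, -0.88 for macrophage markers and 1.81 for endothelial content, and with each library left out in turn from the 10 they ranged from -0.27 to 0.43, from -0.67 to -0.31 and from -0.047 to 0.77. The cause of none of these shifts was tested. Depth limits the genes near the floor of 0.132 to 0.192 CPM, and a wide spread between libraries of 1 group, of untested cause, limits the endothelial markers.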

Other observations

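In 6-3-A6 IP 2, the 6-3-A6 library with the lowest endothelial level, 4 genes picked after their values were seen were higher than in any other IP library. Myh9, the heavy chain of nonmuscle myosin, was at 28259 CPM there, at 5607 CPM in control IgG IP 5 and at 463 to 2203 CPM in the other 8 IP libraries. Flna, the actin crosslinker filamin A, was at 3427 CPM in 6-3-A6 IP 2 and 799 CPM in control IgG IP 5, against 199.8 to 378 CPM in the other 8. Iqgap1, a scaffold of the cell cortex, was at 2540.3 and 1328 CPM in these libraries, and Sptan1, a spectrin chain, at 2567 and 553 CPM. In the other 8 Iqgap1 ranged from 134 to 474 CPM and Sptan1 from 106 to 249 CPM. Other genes of the cytoskeleton were not counted. Both libraries also held the highest Fn1 levels. In input, Myh9 was at 369.9 to 704 CPM over the 10 libraries. The cause of these values was not tested.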
